A study of Mus musculus with 8 samples.

Results

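Transcripts of 10 genes of prostaglandin and leukotriene synthesis, breakdown and sensing were followed in cultured hepatic macrophages exposed to cholesterol crystals (CC). The genes were taken from the count table by their symbols, 10 of its 55401 rows, as a family of enzymes and receptors. One of them, *Hpgd*, was chosen by its measured values, a strong fall with CC, so these are given as a description with no test, and counts of changed genes leave it out. The macrophages came from normal livers of WT C57BL/6J mice on a standard diet, or from steatotic livers of mice of the same strain background that lacked the melanocortin 4 receptor (MC4R-KO) and ate a Western diet for 6 to 10 wk by the methods (6 to 8 wk in another passage of the study). They were enriched with an antibody to F4/80 on magnetic columns, kept on collagen-coated plates, and given vehicle (Veh) or CC at 500 μg/ml for 24 h. Each of the 4 groups (normal Veh, normal CC, steatotic Veh and steatotic CC) held 2 libraries, numbered 1 and 2. The MC4R loss is not limited to macrophages, genotype and diet differ together between the livers and cannot be told apart. The methods describe male mice, 8 wk old when the Western diet began, for the longer feeding experiments, and do not give age or sex separately for the mice behind these libraries. The labels do not say whether the 2 libraries of a group came from separate mice or cultures, so p-values measure the spread between these libraries, which may be technical.

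Eicosanoids are made from arachidonic acid that phospholipases free from membrane lipids. Cyclooxygenases turn it into an unstable intermediate, which terminal synthases convert to prostaglandin E2, prostaglandin D2, prostacyclin or thromboxane. Prostaglandin E2 acts through the receptors EP1 to EP4 and is inactivated inside cells by a dehydrogenase encoded by *Hpgd*. In the other branch, 5-lipoxygenase and its activating protein make leukotriene A4, from which leukotriene C4 synthase makes the cysteinyl leukotrienes. Macrophages, Kupffer cells of the liver among them, are known sources of both classes.

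The libraries held 58668655 to 74529462 counts each, and levels are given as counts in 1000000 of the library total (CPM). A count of 3 in 1 library, taken as the floor, stood for 0.0403 to 0.0511 CPM, a limit that covers counting error only. About 4 counts may stand for 1 fragment, in which case 3 fragments would be 0.161 to 0.205 CPM, above *Alox5* in all CC libraries and *Ltc4s* in both steatotic CC libraries. The 6 macrophage markers (*Adgre1*, which encodes F4/80, *Cd68*, *Csf1r*, *Lyz2*, *Fcgr1* and *Mertk*) were all present, with sums of 15200 to 15600 CPM in normal Veh, 12100 to 12300 in normal CC, 10900 to 11100 in steatotic Veh and 9480 to 10300 in steatotic CC. The largest part of the sum was *Lyz2*, at 7910 to 8230 CPM in normal Veh and 3430 to 3590 in steatotic Veh. Between the livers, 3 of the 6 markers were higher and 2 lower in steatotic under both treatments. *Adgre1* measured 1060 to 1090 CPM in normal Veh and 1730 to 1740 in steatotic Veh. *Mc4r* had 0 counts in the 4 libraries labelled normal and 22 to 72 counts (0.299 to 0.966 CPM) in the 4 labelled steatotic. This order is the reverse of what the genotypes would give, except where an altered allele still yields reads, and every direction between livers below rests on the labels. Recruited monocyte markers were higher in the libraries labelled steatotic (117 to 123 CPM in steatotic Veh and 9.21 to 9.28 in normal Veh), and whether the labels were exchanged was not tested. In bulk RNA, fewer cells of a type and less RNA per cell cannot be told apart.

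RefSeq promoters (GRCm38.p6, from 250 bases before to 50 after the annotated start) were matched for 9 of the 10 genes, all except *Alox5ap*. The windows of 3 genes are shown because they belong to the genes with the widest swings with CC, the enzymes *Ptgs2* and *Ptges*, which rose, and *Hpgd*, which fell. They lie at chr1:150099781-150100080 on the plus strand (*Ptgs2*), chr2:30903248-30903547 on the minus strand (*Ptges*) and chr8:56294302-56294601 on the plus strand (*Hpgd*), and each is written 5′ to 3′ on the strand of its gene. Capitals mark matches on either strand to any of 8 motifs that were chosen after the values were seen.
Ptgs2: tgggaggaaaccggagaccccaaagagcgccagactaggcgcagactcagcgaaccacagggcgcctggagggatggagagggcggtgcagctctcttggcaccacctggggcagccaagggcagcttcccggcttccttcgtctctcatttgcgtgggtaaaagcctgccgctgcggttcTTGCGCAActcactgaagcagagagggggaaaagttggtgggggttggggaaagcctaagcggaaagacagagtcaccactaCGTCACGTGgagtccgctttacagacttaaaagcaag
Ptges: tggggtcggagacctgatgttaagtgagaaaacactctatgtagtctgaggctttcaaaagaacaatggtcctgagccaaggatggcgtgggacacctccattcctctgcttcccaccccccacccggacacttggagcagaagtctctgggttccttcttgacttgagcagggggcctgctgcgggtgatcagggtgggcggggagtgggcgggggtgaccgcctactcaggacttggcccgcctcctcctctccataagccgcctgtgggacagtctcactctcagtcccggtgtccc
Hpgd: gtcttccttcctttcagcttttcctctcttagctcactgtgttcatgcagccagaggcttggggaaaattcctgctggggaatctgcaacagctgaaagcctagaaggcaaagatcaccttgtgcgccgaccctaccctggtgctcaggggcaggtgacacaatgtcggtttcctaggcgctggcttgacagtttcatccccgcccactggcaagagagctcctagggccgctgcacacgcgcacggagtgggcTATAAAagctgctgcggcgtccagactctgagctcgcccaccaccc
The *Ptgs2* window held the C/EBP site TTGCGCAA starting 69 bases before the start, which 0.183% of all 32851 RefSeq promoters of this length contain. It also held a cAMP response element half-site, TGACG, read on the opposite strand 13 bases after the start (20.8% of promoters), and overlapping it the E-box CACGTG at 16 bases (7.15%). The *Hpgd* window held TATAAA (13.6%) 4 bases after the RefSeq start, which is 29 bases before the start that GENCODE gives for the gene. None of the 8 motifs was found in the *Ptges* window, which sits at the start of 1 of the 4 GENCODE transcripts of the gene, 26566 bases inside the gene's full span. The other motifs searched were the AP-1 site TGAGTCA (5.2%), the EGR site GCGTGGGCG (0.612%), the CCAAT box (37.4%, found in the *Ptger2* and *Ptger4* windows) and an NF-kB site (8.46%). A match is a description of letters only, and the absence of a match says only that these letters were not in the window.

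The first question was how CC changed these transcripts in macrophages of each liver. With CC, the transcripts for the inducible cyclooxygenase and for the synthase that makes prostaglandin E2 rose in both livers, whereas those for the constitutive cyclooxygenase, the prostaglandin D2 synthase, the EP4 receptor and the activating protein of 5-lipoxygenase fell. *Ptgs2* and *Ptges* rose 2.27-fold and 2.28-fold with the label normal and 6.77-fold and 6.02-fold with the label steatotic. Of the 9 genes other than *Hpgd*, 8 passed the filter of 0.5 CPM in at least 1 library and were tested, and *Alox5* did not. With the label normal, 2 of these 8 rose, 4 fell and 2 did not pass (edgeR quasi-likelihood test, Benjamini-Hochberg adjusted p under 0.05), against 6.27% of the 15202 tested genes that rose and 5.54% that fell. The 4 that fell became 2 without normal Veh library 1, normal CC library 1 or normal CC library 2. When libraries were scaled by their totals alone, the calls over all genes in this comparison went from 953 higher and 842 lower to 808 higher and 1110 lower. With the label steatotic, 3 of the 8 rose and 5 fell, against 12.0% of all tested genes that rose and 10.9% that fell. *Ltc4s*, one of those that fell, passed the filter through libraries outside steatotic CC, and without it 3 of 7 rose and 4 fell. The median log2 fold change was -0.02 with the label normal and -0.91 with the label steatotic over the 8 genes, and -0.20 and -0.88 without *Ltc4s*, beside medians over all tested genes of -0.000588 and 0.

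**Figure D1:**
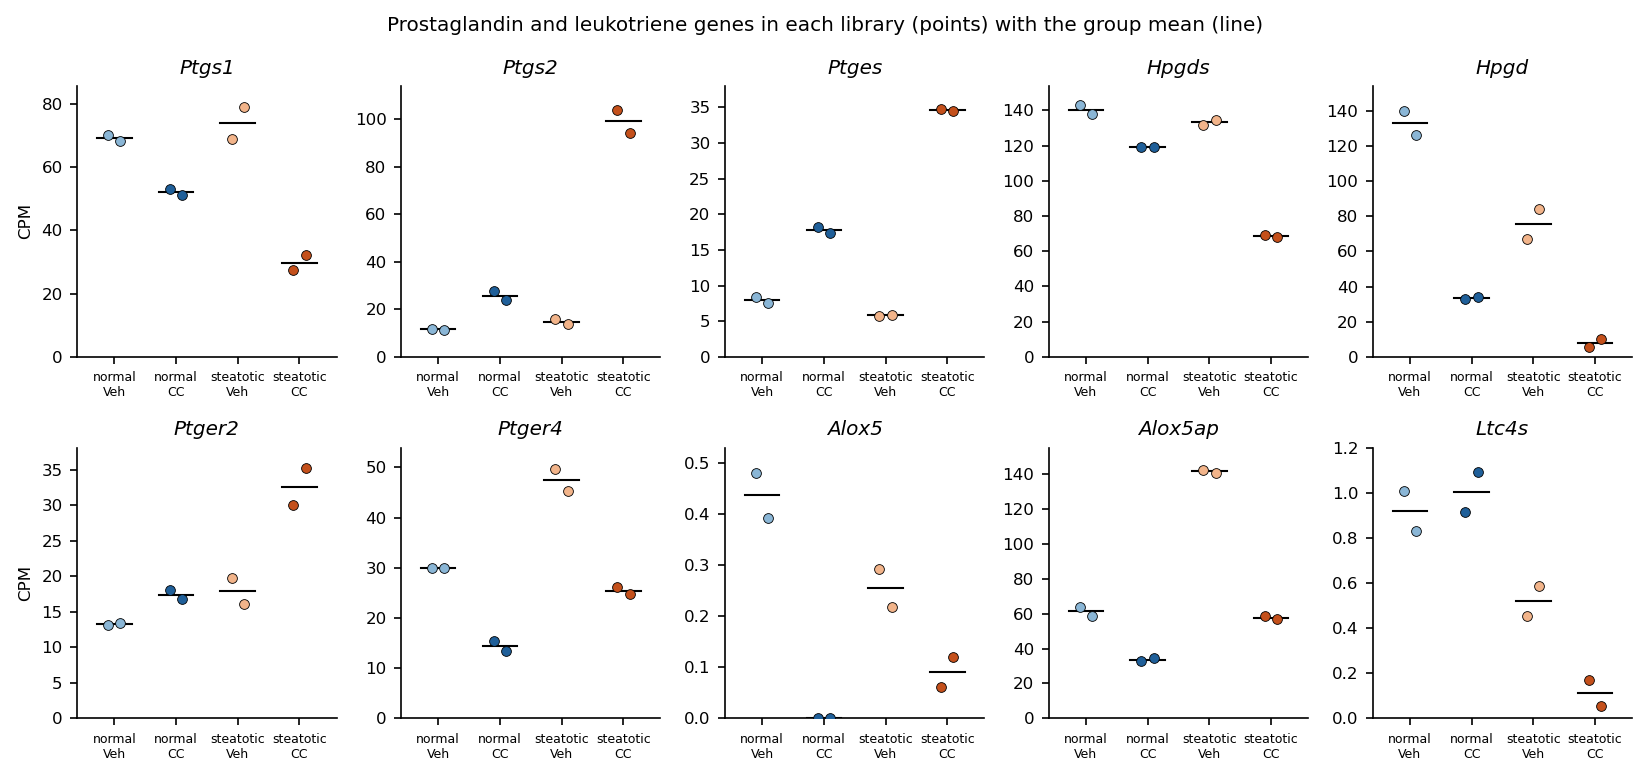
Level of each of the 10 genes in CPM (vertical axis, from 0, with its own scale in each panel) in the 8 libraries by group; points are libraries and lines are group means. *Ptgs2* and *Ptges* are highest in the 2 steatotic CC libraries (94.4 to 104 and 34.5 to 34.7 CPM), where *Ptgs1*, *Hpgds*, *Hpgd* and *Ltc4s* are lowest.

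*Ptgs1* (ENSMUSG00000047250, chromosome 2, 36230426 to 36252272 in GRCm38) encodes the constitutive cyclooxygenase COX-1. Its levels were 70.2 and 68.1 CPM in normal Veh, 53.0 and 51.1 in normal CC, 68.8 and 78.9 in steatotic Veh, and 27.3 and 32.1 in steatotic CC. The CC libraries lay below the Veh libraries of the same liver, and the steatotic CC libraries lay below all others. On the log2 scale the change with CC was -0.37 ± 0.0912 (SE) in normal (adjusted p = 0.0384) and -1.30 ± 0.0927 in steatotic (adjusted p = 5.83e-05). The normal call was lost when any of the 4 normal libraries was left out (adjusted p = 0.112 to 0.165).

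*Ptgs2* (ENSMUSG00000032487, chromosome 1, 150100031 to 150108227) encodes COX-2, the cyclooxygenase induced by inflammatory stimuli. It measured 11.8 and 11.4 CPM in normal Veh and 27.6 and 23.9 in normal CC. In steatotic libraries it measured 15.8 and 13.9 CPM with Veh and 104 and 94.4 with CC. No library of one group fell within the range of another. With CC the log2 fold change reached 1.18 ± 0.0998 in normal (adjusted p = 0.000364) and 2.76 ± 0.104 in steatotic (adjusted p = 3.16e-06).

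As these genes moved in opposite directions, their ratio within each library shifted. Per kb of exon, *Ptgs2* stood at 0.143 and 0.142 of *Ptgs1* in normal Veh, 0.441 and 0.397 in normal CC, 0.195 and 0.149 in steatotic Veh, and 3.23 and 2.49 in steatotic CC. Only in the steatotic CC libraries was *Ptgs2* the more abundant of the pair. The ratio was chosen after the values were seen and was not tested.

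*Ptges* (ENSMUSG00000050737, chromosome 2, 30889471 to 30929863) encodes the microsomal prostaglandin E synthase that acts with COX-2. Its levels were 8.40 and 7.58 CPM in normal Veh, 18.3 and 17.3 in normal CC, 5.69 and 5.93 in steatotic Veh, and 34.7 and 34.5 in steatotic CC. The steatotic libraries thus held the lowest levels with Veh and the highest with CC. Its log2 fold change under CC was 1.19 ± 0.0858 in normal (adjusted p = 0.000165) and 2.59 ± 0.0892 in steatotic (adjusted p = 2.87e-06).

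*Hpgds* (ENSMUSG00000029919, chromosome 6, 65117293 to 65144908) encodes hematopoietic prostaglandin D synthase. It measured 143 and 138 CPM in normal Veh, 119 and 119 in normal CC, 132 and 135 in steatotic Veh, and 69.4 and 68.3 in steatotic CC. The drop was small in normal and clear in steatotic libraries, with no overlap in either. The fitted log2 fold change was -0.20 ± 0.04 in normal (adjusted p = 0.0176) and -0.94 ± 0.0404 in steatotic (adjusted p = 5.58e-06). The normal call was lost without normal Veh library 1 (adjusted p = 0.103), normal CC library 1 (0.0911) or normal CC library 2 (0.086). Mast cells also make this enzyme. Of 8 mast cell or basophil markers, *Mcpt4*, *Ms4a2* and *Fcer1a* had 0 counts in all 8 libraries, *Cpa3*, *Cma1* and *Mcpt8* did not exceed 0.0641 CPM, and *Tpsb2* measured 0.136 to 0.362 CPM in normal and at most 0.061 in steatotic libraries. Only *Kit* passed the filter, at 2.69 to 3.52 CPM in normal and 6.55 to 7.61 in steatotic libraries. The list summed to 3.62 to 3.87 CPM in normal Veh, 2.85 to 3.91 in normal CC, 6.71 to 6.95 in steatotic Veh and 6.60 to 7.67 in steatotic CC, and its part in the *Hpgds* result was not tested.

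*Hpgd* (ENSMUSG00000031613, chromosome 8, 56294585 to 56321043) encodes the dehydrogenase that takes the first step of prostaglandin inactivation. Its levels were 140.2 and 126 CPM in normal Veh and 33.1 and 34.0 in normal CC. In steatotic libraries they were 67.3 and 84.3 CPM with Veh and 5.55 and 10.4 with CC. The 4 groups did not overlap, and the lowest level, in steatotic CC library 1, was the only one under 10 CPM. These are the values it was chosen for. The fitted log2 fold change with CC was -1.95 ± 0.301 in normal and -3.23 ± 0.321 in steatotic, the 101st and 47th lowest of the 15202 tested genes. Leaving out steatotic CC library 1 gave -2.85 in steatotic, and leaving out library 2 gave -3.75. Relative to *Hpgd* per kb, *Ptgs2* stood at 0.0311 and 0.0333 in normal Veh, 0.306 and 0.258 in normal CC, 0.0862 and 0.0606 in steatotic Veh, and 6.89 and 3.34 in steatotic CC, again a ratio chosen after the values were seen.

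Of the prostaglandin E2 receptor genes, *Ptger2* rose with CC in steatotic, and *Ptger4* fell in both livers. *Ptger2* (ENSMUSG00000037759, chromosome 14, 44988195 to 45003820) encodes EP2, a receptor that raises cAMP. It measured 13.1 and 13.5 CPM in normal Veh, 18.0 and 16.8 in normal CC, 19.8 and 16.1 in steatotic Veh, and 30.0 and 35.2 in steatotic CC. Only the normal CC and steatotic Veh ranges overlapped. Under CC its log2 fold change was 0.42 ± 0.122 in normal, which did not pass (adjusted p = 0.0685), and 0.88 ± 0.122 in steatotic (adjusted p = 0.00161). The normal difference did pass with DESeq2 (adjusted p = 0.0418), with every gene that had any count (0.0425), with the 4 normal libraries alone (0.0421), and without steatotic Veh library 1 (0.0439) or 2 (0.0463).

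*Ptger4* (ENSMUSG00000039942, chromosome 15, 5206661 to 5244187) encodes EP4, which also raises cAMP. Its levels were 30.0 and 30.1 CPM in normal Veh, 15.3 and 13.4 in normal CC, 49.6 and 45.3 in steatotic Veh, and 26.2 and 24.8 in steatotic CC. They fell with CC in both livers, by 1.03 ± 0.0885 on the log2 scale in normal (adjusted p = 0.000396) and by 0.88 ± 0.0874 in steatotic (adjusted p = 0.000305). Per kb, the ratio of *Ptger2* to *Ptger4* was 0.560 and 0.575 in normal Veh and 0.511 and 0.456 in steatotic Veh. With CC it was 1.51 and 1.60 in normal and 1.47 and 1.82 in steatotic, so that per kb *Ptger2* stood above *Ptger4* in all 4 CC libraries. This ratio rests on merged exon lengths of 5193 and 6648 bases, which may differ from those of the transcripts present, and was not tested. The EP4 gene shares 1015 of its 6648 exonic bases with *Gm15937* on the opposite strand, which had 0 to 10 counts, and 82 bases with *Ttc33*, also on the opposite strand, which had 1127 to 2363 counts.

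**Figure D2:**
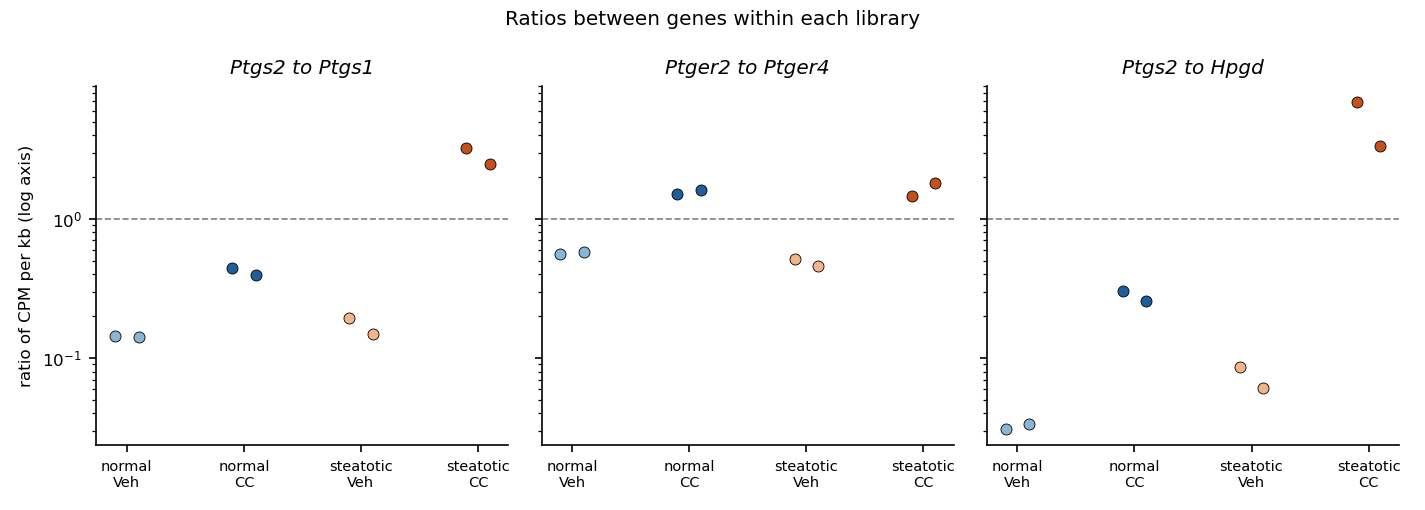
Ratio between genes in CPM per kb (log axis) within each library, by group; the dashed line marks equal levels. *Ptgs2* exceeds *Ptgs1* and *Hpgd* only in steatotic CC (2.49 to 3.23 and 3.34 to 6.89), whereas *Ptger2* exceeds *Ptger4* in the CC libraries of both livers (1.47 to 1.82).

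In the leukotriene branch, *Alox5ap* (ENSMUSG00000060063, chromosome 5, 149264767 to 149288153) encodes the protein that presents arachidonic acid to 5-lipoxygenase. It measured 63.9 and 58.6 CPM in normal Veh, 33.0 and 34.4 in normal CC, 142 and 141 in steatotic Veh, and 58.4 and 57.1 in steatotic CC. The steatotic Veh libraries were the highest by far, and with CC the steatotic libraries came just below normal Veh. CC changed it on the log2 scale by -0.83 ± 0.0556 in normal (adjusted p = 0.000126) and -1.28 ± 0.0556 in steatotic (adjusted p = 5.74e-06).

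*Alox5* (ENSMUSG00000025701, chromosome 6, 116410077 to 116461178), the gene of 5-lipoxygenase itself, stayed under 0.5 CPM in all libraries and was left out by the filter. It had 34 and 26 counts in normal Veh (0.482 and 0.393 CPM), 0 and 0 in normal CC, 20 and 16 in steatotic Veh (0.293 and 0.218 CPM), and 4 and 9 in steatotic CC (0.061 and 0.121 CPM). The Veh libraries lay above the CC libraries of the same liver, with at most 34 counts in any library. When every gene with any count was tested, *Alox5* was lower with CC in normal (adjusted p = 0.007) and higher in steatotic than in normal with CC (adjusted p = 0.0363), both against the normal CC libraries at 0 counts. With DESeq2 it was also higher in steatotic with CC (adjusted p = 0.0316), and no adjusted p was given for CC in normal. It did not pass with CC in steatotic (adjusted p = 0.539, or 0.467 with DESeq2) or between the livers with Veh (0.737 or 0.745). Per kb, *Alox5ap* therefore measured 41.3 to 45.0 CPM in normal Veh where *Alox5* measured 0.0956 to 0.117. Neutrophils are rich in 5-lipoxygenase, and their gene *Ly6g* had 0 counts in all libraries, with *S100a9*, *Camp*, *Ngp* and *Retnlg* at most at 0.282 CPM. The other 3 of the 8 neutrophil-listed genes were tested. The list summed to 138 to 140 CPM in normal Veh, 150 to 151 in normal CC, 249 to 258 in steatotic Veh and 384 to 390 in steatotic CC. Most of this was *Mmp8*, at 46.4 to 50.1, 74.5 to 75.8, 94.1 to 98.0 and 241 to 243 CPM in the same order, and *Csf3r*, at 81.1 to 81.3, 59.2 to 61.6, 149 to 156 and 125 to 127. *S100a8* measured 9.08 to 9.94, 14.4 to 14.9, 4.29 to 5.44 and 18.4 to 19.2 CPM. In each liver 2 of the 3 rose with CC and 1 fell, and the part of this list in the eicosanoid results was not tested.

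*Ltc4s* (ENSMUSG00000020377, chromosome 11, 50236461 to 50238616), the gene of leukotriene C4 synthase, was close to the filter, with 1.01 and 0.831 CPM in normal Veh, 0.913 and 1.09 in normal CC, 0.454 and 0.584 in steatotic Veh, and 0.168 and 0.0537 in steatotic CC. The normal groups overlapped, whereas the steatotic CC libraries, with 11 and 4 counts, lay below all others. Under CC the log2 fold change came to 0.16 ± 0.471 in normal (adjusted p = 0.882) and -2.22 ± 0.556 in steatotic (adjusted p = 0.0251). The steatotic call was lost in a fit of the 4 steatotic libraries alone (adjusted p = 0.0915) and without steatotic Veh library 1 (0.0541) or 2 (0.1) or steatotic CC library 2 (0.0905). The log2 fold change was -1.60 without steatotic CC library 2 and -3.22 without library 1. *Ltc4s* overlaps *Gm26542* on the opposite strand over 268 of 1014 exonic bases, and this neighbour had 0 to 18 counts. The libraries were made with a directional kit, which keeps the strand of the RNA, but whether the counting used it is not stated.

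The next question was whether the response to CC itself differed between the livers, tested as the difference between the log2 fold changes (steatotic minus normal). Of the 8 tested genes, 2 responded more positively in steatotic (1.95% of all tested genes), 3 more negatively (1.27%) and 3 did not pass. *Ptgs2* rose more with CC in steatotic by 1.58 ± 0.14 on the log2 scale (adjusted p = 0.00233), and *Ptges* by 1.40 ± 0.12 (adjusted p = 0.00219). *Ptgs1* and *Hpgds* fell further in steatotic, with differences of -0.92 ± 0.129 (adjusted p = 0.0109) and -0.74 ± 0.0567 (adjusted p = 0.00153). The difference for *Alox5ap*, -0.45 ± 0.0778 (adjusted p = 0.0249), was small and was lost when any library other than normal Veh library 1 was left out (adjusted p = 0.0547 to 0.0903).

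*Ptger2* and *Ptger4* showed no difference that passed, at 0.45 ± 0.172 for *Ptger2* (adjusted p = 0.281) and 0.15 ± 0.123 for *Ptger4* (adjusted p = 0.683). The estimate for *Ltc4s*, -2.38 ± 0.728, did not pass either (adjusted p = 0.17). For *Hpgd*, the fitted difference was -1.28, or -0.90 without steatotic CC library 1 and -1.80 without steatotic CC library 2. The median difference was -0.15 over the 8 genes and 0.15 without *Ltc4s*, beside 0.0053 over all tested genes. Both CC comparisons and this difference use the same libraries.

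**Figure D3:**
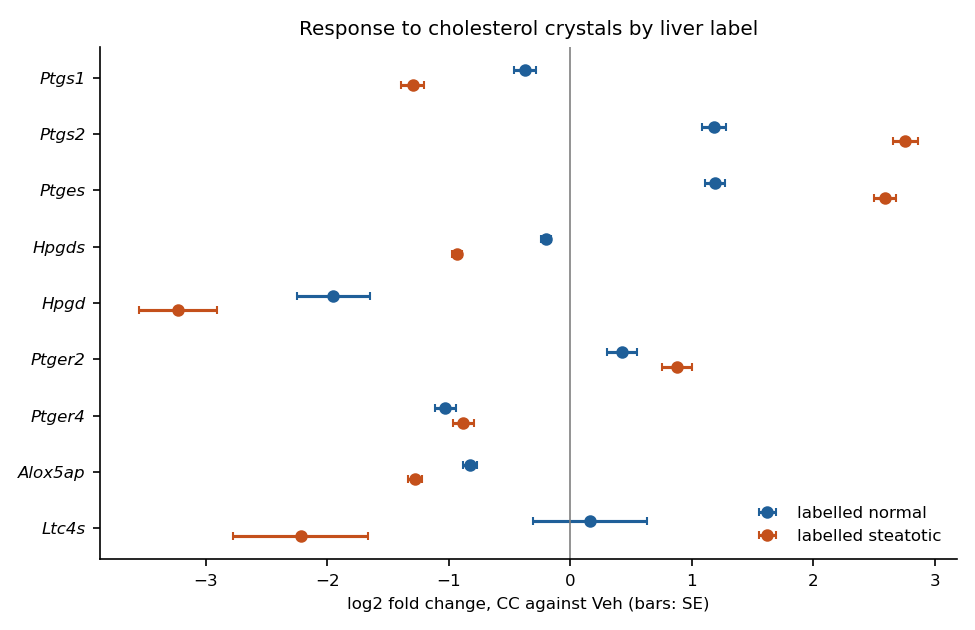
Log2 fold change with CC (horizontal axis) for the 9 genes that passed the filter, in macrophages labelled normal and steatotic; points are fitted values and bars are SE, and *Hpgd* is shown as a description without a test. *Ptgs2* and *Ptges* lie furthest to the right in steatotic (2.76 and 2.59), and the points of *Ptger4* lie near each other (-1.03 and -0.88).

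The last comparisons set steatotic against normal macrophages under the same treatment. With Veh, 4 of the 8 tested genes were higher in steatotic (16.4% of all tested genes), 1 was lower (14.3%) and 3 did not pass. The 4 higher became 2 without normal Veh library 1 or 2 or steatotic Veh library 1, and the 1 lower became 0 without normal Veh library 1 or in a fit of the 4 Veh libraries alone. When libraries were scaled by their totals alone, the calls over all genes in this comparison went from 2489 higher and 2176 lower to 2210 higher and 2683 lower. *Alox5ap* was 2.39-fold higher (log2 fold change 1.26 ± 0.0556, adjusted p = 4.17e-06) and *Ptger4* 1.63-fold higher (0.70 ± 0.0871, adjusted p = 0.000687). *Ptgs2* and *Ptger2* were higher by less, with log2 fold changes of 0.40 ± 0.0993 (adjusted p = 0.02) and 0.48 ± 0.122 (adjusted p = 0.0217). *Ptges* was lower at -0.41 ± 0.0863 (adjusted p = 0.00879).

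These smaller Veh differences depended on single libraries. Without normal Veh library 1, normal Veh library 2 or steatotic Veh library 1, the adjusted p was 0.0608, 0.0865 and 0.109 for *Ptgs2* and 0.0943, 0.0727 and 0.117 for *Ptger2*. For *Ptges* it was 0.0511 without normal Veh library 1 and 0.0638 in a fit of the 4 Veh libraries alone. *Ptgs1* (0.14 ± 0.0908, adjusted p = 0.292), *Hpgds* (-0.03 ± 0.04, adjusted p = 0.623) and *Ltc4s* (-0.77 ± 0.48, adjusted p = 0.273) did not pass. *Hpgd* had a fitted log2 fold change of -0.77.

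With CC, 5 of the 8 tested genes were higher in steatotic (15.9% of all tested genes) and 3 were lower (12.9%). One of the 3, *Ltc4s*, passed the filter only through libraries of the other groups, and without it 5 of 7 were higher and 2 lower. *Ptgs2* was 3.93-fold higher (1.97 ± 0.1, adjusted p = 8.34e-06) and *Ptges* 1.98-fold higher (0.99 ± 0.0842, adjusted p = 0.000123), so that the order of *Ptges* between the livers turned round with treatment. *Ptger2*, *Ptger4* and *Alox5ap* were higher by 0.93 ± 0.122 (adjusted p = 0.00108), 0.85 ± 0.0883 (adjusted p = 0.000329) and 0.80 ± 0.0556 (adjusted p = 4e-05) on the log2 scale. The lower genes were *Ptgs1* at -0.78 ± 0.0921 (adjusted p = 0.000633), *Hpgds* at -0.77 ± 0.0403 (adjusted p = 1.02e-05) and *Ltc4s* at -3.15 ± 0.555 (adjusted p = 0.00455). The *Ltc4s* log2 fold change was -4.15 without steatotic CC library 1 and -2.54 without library 2, and these libraries held only 11 and 4 counts of it. *Hpgd* had a fitted log2 fold change of -2.04 in this comparison, or -1.67 and -2.57 without steatotic CC library 1 or 2. Median log2 fold changes were 0.27 with Veh and 0.83 with CC over the 8 genes, and 0.40 and 0.85 without *Ltc4s*, beside -0.00955 and 0.00264 over all tested genes.

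Markers of other cells moved with the liver label. Recruited monocyte markers (5 of 5 tested, all higher in steatotic under both treatments) summed to 9.21 to 9.28 CPM in normal Veh, 6.53 to 7.23 in normal CC, 117 to 123 in steatotic Veh and 80.5 to 97.4 in steatotic CC. 1 of the 5, *Chil3*, at 0 to 0.256 CPM in normal and 1.29 to 1.98 in steatotic, passed the filter only through the steatotic libraries. Hepatocyte markers (4 of 5 tested lower in steatotic under both treatments) summed to 48.2 to 58.1 CPM in normal and 1.78 to 2.47 in steatotic libraries. Of the 5 tested, all except *Alb* (41.0 to 49.4 CPM in normal and 1.24 to 2.31 in steatotic) were at most at 0.234 CPM in steatotic. They passed the filter only through the normal libraries, so their part of this count is no independent support. Among 6 platelet genes, *Pf4* measured 11.6 to 14.7 CPM in normal and 68.0 to 80.9 in steatotic libraries, while the other 5 did not exceed 0.366 CPM. Of the 6 macrophage markers, 5 fell with CC in normal, and 4 fell and 1 rose in steatotic. Of the 6 Kupffer cell markers, 3 fell with CC in normal, and 5 fell and 1 rose in steatotic, with sums with Veh and CC of 3050 to 3110 and 2390 to 2600 CPM in normal and 4450 to 4490 and 2930 to 3450 in steatotic. Between the livers, 4 were higher and 2 lower in steatotic under both treatments. Most of the sum was *Cd5l*, at 1920 to 1950 CPM in normal Veh and 3120 to 3160 in steatotic Veh. *Clec4f* (134 to 136 and 88.2 to 96.2 CPM) and *Marco* (357 to 375 and 90.5 to 95.2 CPM) went the other way. Of the stellate cell list only *Dcn* passed the filter, rising from 2.07 CPM in its lowest library to 135 in its highest, steatotic CC library 1, while the other 5 genes of the list (*Col1a1*, *Col3a1*, *Lrat*, *Reln* and *Pdgfrb*) did not exceed 0.425. Sums of the T or NK cell markers were 3.67 to 3.90 CPM in normal Veh, 2.20 to 2.40 in normal CC, 12.3 to 12.6 in steatotic Veh and 9.36 to 9.37 in steatotic CC, with 5 of 6 genes higher in steatotic under both treatments. All except *Cd4* were at most at 0.317 CPM in normal and passed the filter only through the steatotic libraries, so this count is no independent support. Sinusoidal endothelial markers summed to 138 to 143, 165 to 170, 238 to 242 and 214 to 226 CPM in the same order, with 4 of 5 tested genes higher and 1 lower in steatotic with Veh and 3 higher with CC. Eosinophil-listed genes summed to 22.7 to 23.5, 13.2 to 13.4, 49.8 to 51.4 and 14.6 to 17.0 CPM, with *Prg2* and *Epx* not passing the filter. Nearly all of this was *Ccr3* (12.4 to 50.9 CPM), while *Siglecf* stayed at 0.457 to 0.817 CPM. Dendritic cell sums were 3.61 to 4.24 CPM in normal Veh, 4.85 to 5.54 in normal CC, 9.38 to 9.65 in steatotic Veh and 7.36 to 8.71 in steatotic CC, with 2 of 5 tested genes higher and 1 lower in steatotic with Veh. *Flt3*, 1 of the 5, was at most at 0.0537 CPM in steatotic and passed the filter only through the normal CC libraries. B cell sums were 2.40 to 2.66, 1.5 to 1.79, 2.59 to 2.88 and 0.854 to 1.26 CPM in the same order, with 1 of 3 tested genes lower with CC in steatotic. Cholangiocyte sums were 5.13 to 7.32, 6.73 to 8.01, 9.5 to 10.5 and 10.4 to 13.2 CPM, with 1 of 3 genes higher in steatotic under both treatments. The part of these cells in the eicosanoid results was not tested.

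Ranked per kb of exon within each group, *Hpgd* led the set in normal Veh with 74.9 to 83.3 CPM per kb, ahead of *Alox5ap*, *Hpgds* and *Ptgs1*. In the other 3 groups *Alox5ap* led, at 23.2 to 24.3 in normal CC, 99.2 to 100.3 in steatotic Veh and 40.2 to 41.1 in steatotic CC. *Ptgs2* moved from the 7th place in both Veh groups (2.50 to 3.45 CPM per kb) to the 5th in normal CC (5.22 to 6.02) and the 2nd in steatotic CC (20.6 to 22.7). *Hpgd* dropped to the 7th place in steatotic CC (3.30 to 6.18), where its range overlapped those of *Ptger2* and *Ptger4*. *Ptger2* and *Ptgs2* overlapped in both Veh groups, and all other neighbours in the order were apart in all groups. *Ltc4s* and *Alox5* were last in every group, at most at 1.08 and 0.117 CPM per kb.

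For each gene with a mean of at least 1 CPM, the genes whose log2 CPM correlated best with it were sought among 9021 candidates. Pearson's r was taken over the 8 libraries, which share groups and treatment, and is given as a description. It compares the pattern over libraries and takes no account of level or size of change. *Ptgs2* ran closest to *Calcrl* (0.995), *Nos2* (0.994), the inducible nitric oxide synthase, and *Slc31a2* (0.991). *Ptges* ran closest to *Cd200* (0.998), *Lhfpl2* (0.997) and *Clec4e* (0.996), and *Ptgs1* to *Scamp5* (0.997), *Kat2a* (0.992) and *Cd2ap* (0.987). *Nos2* had the same shape as *Ptgs2* in CPM, with 7.64 and 7.87 in normal Veh, 16.5 and 16.5 in normal CC, 9.51 and 8.85 in steatotic Veh, and 41.5 and 40.4 in steatotic CC. The falling *Hpgd* was nearest to *Stag2* and *Suclg2* (both 0.994) and *Pygl* (0.991), and *Hpgds* to *Adcy3* (0.988), *Nab2* and *Cd207* (both 0.987). Sizes could differ widely, as *Stag2* spanned only 127 to 171 CPM where *Hpgd* spanned 5.55 to 140. *Alox5ap* was nearest to *Serinc3* and *Unc93b1* (both 0.998) and *Ptpn18* (0.997), *Ptger4* to *Stk17b* (0.992), *Cxcl16* (0.988) and *C1qc* (0.987), and *Ptger2* to *Siglece* (0.990), *5830417I10Rik* and *Dop1b* (both 0.988).

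The surrounding pathway was covered by 57 further genes, 39 of which were tested. With CC, 5 rose and 4 fell with the label normal, against 6.27% and 5.54% of all tested genes, and 7 rose and 7 fell with the label steatotic, against 12.0% and 10.9%. The response was more negative in steatotic for 3 (1.27% of all tested genes), and 36 did not pass. Between the livers, 12 were higher and 9 lower in steatotic with Veh, against 16.4% and 14.3% of all tested genes, and 11 higher and 8 lower with CC, against 15.9% and 12.9%. Leaving out 1 library changed some of these counts by over 1.5 times. The 5 that rose in normal became 3 without normal Veh library 1, the 7 that fell in steatotic became 4 without library 1 of steatotic Veh or of steatotic CC, and the 9 lower with Veh became 5 without normal Veh library 1 or either steatotic Veh library. Median log2 fold changes of the 39 genes were 0.04, -0.08, -0.06, 0.02 and 0.00266 in the same order of comparisons. Genes are named below where the adjusted p was under 0.05 and the log2 fold change over 1 in either direction in some comparison.

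Among 12 tested genes that free arachidonic acid or return it to lipids, 2 rose and 2 fell with CC in normal (6.27% and 5.54% of all tested genes), and 2 rose and 1 fell in steatotic (12.0% and 10.9%). *Pla2g5*, a secreted phospholipase A2, measured 0.637 and 1.07 CPM in normal Veh, 2.53 and 2.20 in normal CC, 1.55 and 1.66 in steatotic Veh, and 8.17 and 5.97 in steatotic CC. It rose with CC in both livers, by 1.51 ± 0.286 (adjusted p = 0.0141) and 2.15 ± 0.277 (adjusted p = 0.00113) on the log2 scale, a call that in normal was lost without normal Veh library 1 (0.0614) or normal CC library 1 (0.0695). *Pla2g15*, the lysosomal phospholipase A2, measured 156 and 149 CPM in normal Veh, 90.4 and 84.8 in normal CC, 256 and 267 in steatotic Veh, and 81.9 and 85.5 in steatotic CC. It fell in both, by 0.76 ± 0.0509 (adjusted p = 0.000124) and 1.63 ± 0.0518 (adjusted p = 2.27e-06) on the log2 scale, and further in steatotic (difference -0.87 ± 0.0716, adjusted p = 0.00185). *Pla2g7*, which cleaves platelet-activating factor and oxidized phospholipids, was higher in steatotic macrophages with Veh (1.51 ± 0.081, adjusted p = 2.03e-05) and with CC (1.26 ± 0.0806, adjusted p = 5.15e-05). *Pla2g4a*, the cytosolic phospholipase A2 that supplies arachidonic acid, did not pass with CC in either liver, with log2 fold changes of -0.07 ± 0.0423 (adjusted p = 0.377) and -0.04 ± 0.0423 (adjusted p = 0.537) and levels of 148 to 201 CPM. It was lower in steatotic with Veh (-0.29 ± 0.0423, adjusted p = 0.00156) and with CC (-0.27 ± 0.0423, adjusted p = 0.00269). It is named here outside the rule.

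Of 7 tested genes for other terminal synthases, 1 fell with CC in normal (5.54% of all tested genes) and 3 fell in steatotic (10.9%), and the others did not pass. Thromboxane synthase (*Tbxas1*) measured 45.0 and 42.4 CPM in normal Veh, 43.4 and 44.2 in normal CC, 88.8 and 83.1 in steatotic Veh, and 48.2 and 49.6 in steatotic CC. The steatotic excess with Veh (1.02 ± 0.0575, adjusted p = 1.33e-05) shrank with CC (0.18 ± 0.0572, adjusted p = 0.0477, a call lost when any 1 library was left out, at 0.0571 to 0.176), and the response to CC differed by -0.84 ± 0.0808 (adjusted p = 0.0031). *Akr1b3*, an aldo-keto reductase with prostaglandin F synthase activity, was lower in steatotic with Veh (-0.61 ± 0.0494, adjusted p = 7.99e-05) and with CC (-1.10 ± 0.0499, adjusted p = 4.54e-06). Its CC response differed by -0.49 ± 0.0697 (adjusted p = 0.0111). *Cbr1*, a carbonyl reductase that can convert prostaglandin E2, fell with CC in steatotic (-1.41 ± 0.322, adjusted p = 0.0264) and was higher in steatotic with Veh (1.24 ± 0.32, adjusted p = 0.0322). Both calls were lost when every gene with any count was tested (0.0881 and 0.102) or when any library outside normal CC was left out (up to 0.145 and 0.149). Prostacyclin synthase (*Ptgis*), at 0.335 to 2.18 CPM, was lower in steatotic with CC (-1.83 ± 0.451, adjusted p = 0.0198), a call lost without normal CC library 1 (0.059) or 2 (0.0708) or steatotic CC library 1 (0.0685, log2 fold change -1.33), while leaving out steatotic CC library 2 gave -2.61.

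Of 6 tested genes of prostaglandin transport and inactivation other than *Hpgd*, 2 rose with CC in each liver (6.27% of all tested genes in normal and 12.0% in steatotic) and 4 did not pass. *Zadh2*, a prostaglandin reductase also named *Ptgr3*, was lower in steatotic macrophages with Veh (-1.03 ± 0.109, adjusted p = 0.000317) and with CC (-1.31 ± 0.11, adjusted p = 0.000112). Of 7 other prostanoid receptor genes only *Ptgir* and *Ptger1* were tested, and *Ptger3*, *Ptgdr* and *Ptgfr* had 0 counts in all libraries. The prostacyclin receptor *Ptgir* measured 1.13 and 0.997 CPM in normal Veh, 1.88 and 1.09 in normal CC, 0.732 and 0.449 in steatotic Veh, and 3.55 and 2.46 in steatotic CC. It rose with CC in steatotic (2.36 ± 0.384, adjusted p = 0.00359), with a difference from normal that did not pass (1.85 ± 0.526, adjusted p = 0.137).

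**Figure D4:**
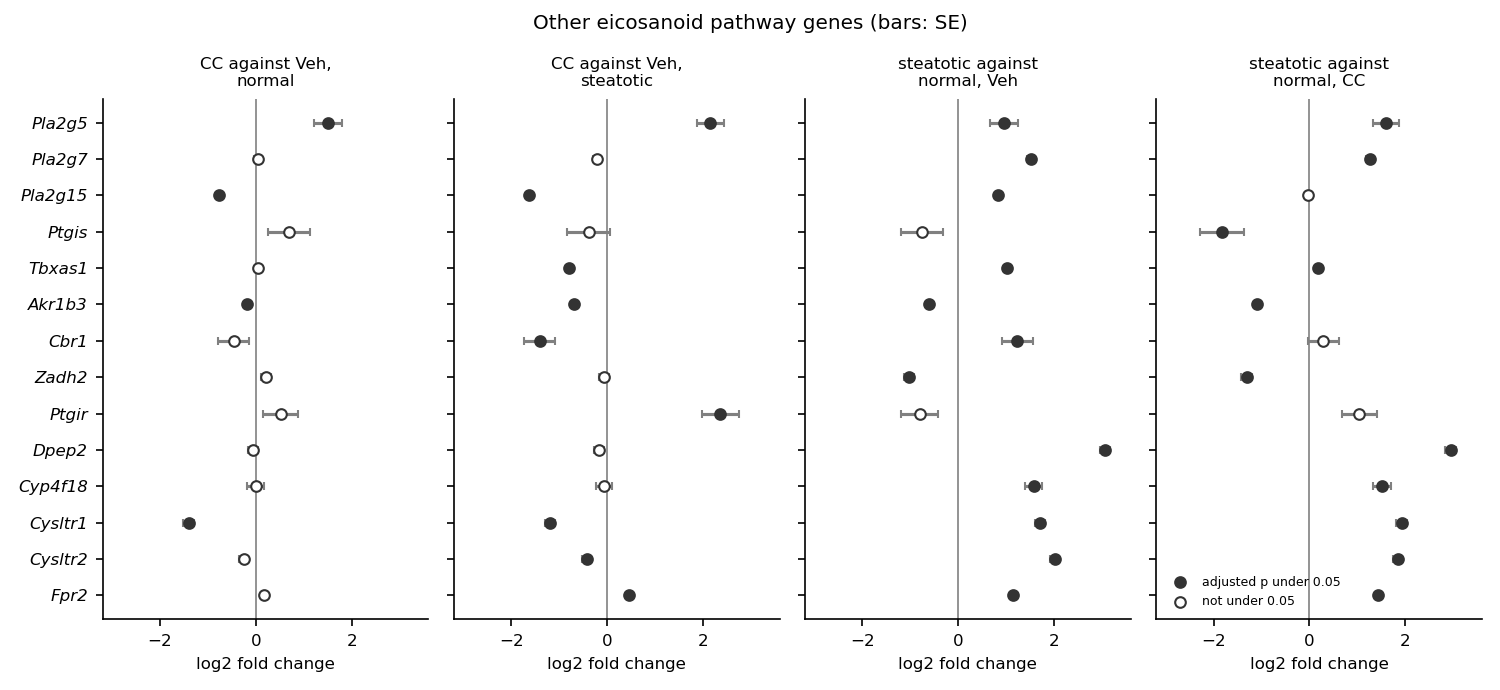
Log2 fold change (horizontal axes, bars SE) of the 14 other pathway genes named by the rule, in 4 comparisons; filled points had an adjusted p under 0.05. With CC the points of *Pla2g5*, *Pla2g15* and *Cysltr1* are displaced from 0 in both livers, and between the livers *Dpep2* lies furthest to the right (3.06 with Veh and 2.94 with CC).

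Of 4 tested leukotriene and lipoxin receptor genes, from 7 listed, 3 were higher in steatotic macrophages under both treatments, against 16.4% of all tested genes with Veh and 15.9% with CC, and *Ltb4r1* did not pass in either (adjusted p = 0.181 and 0.184). *Cysltr1* measured 24.5 and 22.2 CPM in normal Veh, 8.81 and 8.39 in normal CC, 76.0 and 72.0 in steatotic Veh, and 28.5 and 35.5 in steatotic CC. It was higher in steatotic by 1.71 ± 0.111 with Veh (adjusted p = 2.57e-05) and 1.92 ± 0.114 with CC (adjusted p = 1.83e-05) on the log2 scale, and fell with CC by 1.41 ± 0.113 in normal (adjusted p = 0.000286) and 1.19 ± 0.11 in steatotic (adjusted p = 0.000202). *Cysltr2* was higher in steatotic by 2.01 ± 0.0921 with Veh (adjusted p = 4.69e-06) and 1.84 ± 0.0925 with CC (adjusted p = 7.85e-06). *Fpr2*, whose product binds lipoxins and formyl peptides, was higher by 1.15 ± 0.0687 (adjusted p = 1.76e-05) and 1.43 ± 0.0691 (adjusted p = 6.22e-06).

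Of 6 tested genes of leukotriene synthesis and metabolism, 2 were higher in steatotic under both treatments (16.4% and 15.9% of all tested genes), while 2 were lower with Veh (14.3%) and 1 was lower with CC (12.9%). *Dpep2*, a dipeptidase that converts leukotriene D4, measured 6.49 to 8.16 CPM in normal and 54.3 to 64.9 CPM in steatotic libraries, log2 fold changes of 3.06 ± 0.111 with Veh (adjusted p = 1.65e-06) and 2.94 ± 0.111 with CC (adjusted p = 2.2e-06). The table holds *Dpep2* as 2 rows that share 1585 exonic bases on the same strand, so the value of the row used, the one with more counts, is uncertain. *Cyp4f18*, which degrades leukotriene B4, was higher by 1.58 ± 0.178 (adjusted p = 0.000434) and 1.51 ± 0.179 (adjusted p = 0.000651). *Lta4h*, the hydrolase that makes leukotriene B4, did not pass in any comparison, at 36.7 to 42.6 CPM. It is named outside the rule.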

How the data were processed

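Poly(A) RNA of 8 libraries of cultured hepatic macrophages, 2 in each of 4 groups, was sequenced by the study with 150 bp paired reads. The submitters' processing notes name fastp, HISAT2, StringTie and mm10, with versions not given in the sources used here. The table the authors deposited holds estimated counts (expected counts), as whole numbers without normalization, in 1 column per library. From an excess of multiples of 4 among small values, about 4 counts may stand for 1 fragment. Counts were used as deposited. Total counts per library ranged from 58668655 to 74529462, with TMM factors of 0.981 to 1.03.

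The test took genes that reached 0.5 CPM in any library (15202 of 28711 with any count) and used edgeR 4.0.16 in R 4.3.3 (glmQLFit, robust, glmQLFTest) in 1 model of 4 group means, and p-values were adjusted by Benjamini-Hochberg over all tested genes. Folds are the fitted values with a prior count of 0.125. The common biological coefficient of variation was 0.171. The steps were tested on simulated data. Members, lists, tests and alternatives were chosen with earlier results of these data known. Named genes were all members, the pathway genes with an adjusted p under 0.05 and an absolute log2 fold change over 1 in some comparison, and for each member with a mean of at least 1 CPM the 3 nearest genes by correlation. Levels per kb use merged exons of GENCODE M21 (GRCm38), and a coordinate is the gene's span there. Replicate numbers were not treated as pairs: deviations of same-numbered libraries correlated at -0.021 to 0.137 between groups. Alternatives were DESeq2 1.42.0, its size factors, library size only, other filters, counts divided by 4, a prior count of 4, a replicate block, the compared libraries alone, a threshold of 0.1 and leaving out each library. Markers of 14 other or expected cell types were listed, and the report gives their values. Figures were drawn with matplotlib 3.10.9.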

Additional observations from a re-analysis of the deposited data

Results flagged for a closer look

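Several responses to CC differed between macrophages labelled steatotic and normal by a test of the difference itself (edgeR quasi-likelihood test, adjusted p under 0.05, 2 libraries per group). On the log2 scale, steatotic minus normal, the difference was 1.58 for *Ptgs2* (adjusted p = 0.00233) and 1.40 for *Ptges* (adjusted p = 0.00219), genes that rose in both livers. It was -0.92 for *Ptgs1* (adjusted p = 0.0109), -0.74 for *Hpgds* (adjusted p = 0.00153) and -0.45 for *Alox5ap* (adjusted p = 0.0249), genes that fell in both livers. Among the other pathway genes it was -0.87 for *Pla2g15* (adjusted p = 0.00185) and -0.49 for *Akr1b3* (adjusted p = 0.0111), which fell in both, and -0.84 for *Tbxas1* (adjusted p = 0.0031), which fell with CC in steatotic and did not pass in normal. The fall of *Akr1b3* in normal (adjusted p = 0.0491) was lost with the replicate block (0.0701), with DESeq2 (0.0639), and in 6 of 8 fits without 1 library (0.0748 to 0.245). The *Alox5ap* difference was lost when any library other than normal Veh library 1 was left out, with adjusted p = 0.0547 to 0.0903. With 2 libraries per group, single libraries were not examined as outliers.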

How the results depend on the processing

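Counts of called genes, both directions together, among the members other than *Hpgd* (8 tested, and 9 where *Alox5* was added by DESeq2 or by testing every gene with any count) stayed within 1.5 times the reported count in 81 of 84 alternatives. Fold changes of the 9 members were graded as unchanged in 758 of 796, with 0 reversed. For the 8 with a test this meant the same direction and call. *Hpgd* has no call, and for it this meant the same direction and a shift smaller than its spread between replicates, which 6 fits exceeded. A prior count of 4 (45 of the 796) left the calls as they were. The threshold of 0.1 (40) left the fold changes as they were. The exceptions among counts came from leaving out 1 library, which leaves a lone library assumed to vary like the others: 2 to 5 members then differed between the livers with Veh (2 without normal Veh library 1, 3 without normal Veh library 2 or steatotic Veh library 1), and 3 to 5 other pathway genes differed in their response to CC (5 without normal CC library 2). The replicate numbers share only a number. With the replicate block, 6, 8 and 5 members were called with CC in normal, with CC in steatotic and for the difference, and 5 and 8 between the livers with Veh and CC, as without it. For the other pathway genes the replicate block gave 8, 14, 3, 19 and 18 calls. It ended the calls of *Akr1b3* with CC in normal (adjusted p = 0.0701), *Pla2g5* and *Lpcat3* between the livers with Veh (0.0623 and 0.0702) and *Tbxas1* and *Acsl4* between the livers with CC (0.0659 and 0.0702), and added *Ptgir* between the livers with CC (adjusted p = 0.0232). *Tbxas1* between the livers with CC also lost its call under 7 other scalings, filters, count scales or tests and in all 8 fits without 1 library, and *Akr1b3* with CC in normal under 4 others and in 6 fits without 1 library.

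Small fold changes of other pathway genes that were not called changed sign when 1 library was left out. On the log2 scale they ranged from -0.23 to 0.10 for *Dpep2* and -0.11 to 0.092 for *Cyp4f18* with CC in normal, and from -1.17 to 0.11 for *Ptgis*, -0.24 to 0.089 for *Zadh2* and -0.24 to 0.12 for *Cyp4f18* with CC in steatotic. The difference between responses ranged from -0.28 to 0.055 for *Dpep2* and -0.24 to 0.13 for *Cyp4f18*. Between the livers with CC, *Pla2g15* ranged from -0.086 to 0.0059 and *Cbr1* from -0.15 to 0.92, called without normal CC library 1 (adjusted p = 0.00644). Depth limits statements on *Alox5* and *Ltc4s*, which had 0 to 34 and 4 to 71 counts in a library.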
